A study of Mus musculus with 17 samples.

Results

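Granzymes and the proteins that store, release and regulate them were followed in CD8+ T cells from the brain and blood of 2 mouse strains. The 10 genes described are Gzma, Gzmb, Gzmk, Gzmm, Prf1, Nkg7, Ctsw, Cst7, Srgn and Lamp1. They were found by gene name in the table of raw counts, and all 10 were present among its 48709 genes. APP-PS1 mice express 2 transgenes: Mo/HuAPP695swe, a chimeric mouse and human amyloid precursor protein with a mutation, and PS1-dE9, a mutant form of human presenilin 1. The prion protein promoter drives both and directs them to neurons of the central nervous system. Amyloid deposits form in the brain of these mice, and they were compared with wild type (WT) mice. There were 5 libraries of WT blood, 5 of WT brain, 3 of APP-PS1 blood and 4 of APP-PS1 brain. Every WT library was female. Of the APP-PS1 libraries, 2 of 3 from blood and 3 of 4 from brain were male, so sex and strain largely cannot be told apart. The design text calls the mice aged and counts 7 APP-PS1 and 10 WT animals; exact ages and the WT background were not stated in the labels. Whole brains were dissociated mechanically and freed of myelin on Percoll, whereas blood went through red cell lysis, so effects of tissue and of cell preparation cannot be told apart.

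Cytotoxic T cells kill by releasing the contents of specialised lysosomes at the contact with a target cell. Perforin opens the way through the target's membranes, and granzymes, a family of serine proteases, then cleave proteins inside it. Granzyme B cuts after aspartate and activates caspases, granzyme A is a tryptase linked to inflammatory death, granzyme K is a tryptase that marks a memory subset of CD8+ cells, and granzyme M cuts after methionine or leucine. Serglycin binds the enzymes in the granule, cystatin F and cathepsin W act among the granule proteases, and NKG7 and LAMP1 lie in the granule membrane.

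The results turn on the 4 granzyme genes, so the 250 bases before the RefSeq start of each are shown, 5′ to 3′ on the strand of the gene (RefSeq, GRCm38.p6). Capitals mark the matches, on either strand, to 5 short motifs: the KLF box CACCC, the T-box half-site CACACC, the RUNX motif TGTGGT, the AP-1 motif TGANTCA and the CRE motif TGACGTCA. A CACACCC run counts for both of the first 2 motifs. Gzmm lies at chr10:79689020-79695261 on the plus strand, Gzma at chr13:113093825-113100981, Gzmk at chr13:113171608-113225908 and Gzmb at chr14:56258838-56262260, the last 3 on the minus strand and all 4 protein coding. The windows are chr10:79688770-79689019 for Gzmm, chr13:113100982-113101231 for Gzma, chr14:56262335-56262584 for Gzmb and chr13:113180966-113181215 for Gzmk.
Gzmm: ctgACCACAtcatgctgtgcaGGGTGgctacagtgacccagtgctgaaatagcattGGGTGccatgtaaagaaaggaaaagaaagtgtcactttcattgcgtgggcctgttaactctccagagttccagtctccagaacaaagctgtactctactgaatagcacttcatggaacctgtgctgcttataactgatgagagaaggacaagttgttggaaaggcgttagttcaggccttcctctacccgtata
Gzma: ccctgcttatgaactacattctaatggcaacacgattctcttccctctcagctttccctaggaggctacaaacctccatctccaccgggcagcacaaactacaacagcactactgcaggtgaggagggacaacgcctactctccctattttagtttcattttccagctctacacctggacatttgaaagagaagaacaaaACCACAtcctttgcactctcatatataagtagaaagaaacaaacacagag
Gzmb: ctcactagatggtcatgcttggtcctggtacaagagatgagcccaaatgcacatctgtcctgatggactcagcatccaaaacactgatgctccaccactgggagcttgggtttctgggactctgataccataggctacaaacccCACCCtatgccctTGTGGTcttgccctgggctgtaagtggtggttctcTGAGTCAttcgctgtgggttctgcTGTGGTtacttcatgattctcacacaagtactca
Gzmk: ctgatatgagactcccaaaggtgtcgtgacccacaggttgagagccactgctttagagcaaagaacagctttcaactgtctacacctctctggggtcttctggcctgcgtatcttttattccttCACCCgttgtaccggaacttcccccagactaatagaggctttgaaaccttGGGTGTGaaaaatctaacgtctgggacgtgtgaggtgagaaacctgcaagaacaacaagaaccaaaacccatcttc
The Gzmm window held 2 KLF boxes and 1 RUNX motif, and the Gzma window held 1 RUNX motif. In the Gzmb window were 1 KLF box, 2 RUNX motifs and 1 AP-1 motif, and in the Gzmk window 2 KLF boxes, the second overlapping the single T-box half-site match. Such letters are common: of 32851 promoter windows of the same length, 52.01% held a KLF box, 16.3% a T-box half-site, 14.05% a RUNX motif, 6.75% an AP-1 motif and 1.55% a CRE motif. A second RefSeq start of Gzmm was not used here. The starts of Gzmb and Gzmk differ between RefSeq and the GENCODE annotation. These matches describe the windows and say nothing about binding.

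Sequencing was shallow, with 27646 to 214670 counts per library, and the 3 APP-PS1 blood libraries (39055 to 46336 counts) all lay below the 5 WT blood libraries (62604 to 214670 counts). The 10 granule genes together took 0.621% to 1.04% of the counts of a library. All 8 listed CD8+ T cell markers had counts in each group, and Cd4 and Foxp3 had none in any library. Of 48709 genes, 2366 passed a filter at about 117 CPM (a gene's count relative to the library's total) in enough libraries, 9 granule genes among them; Lamp1 did not pass. Gzmm reached that level in 6 libraries, all of blood, and Prf1 in 3, all of WT blood, so both entered the test through the group in which they were high. Gzma entered mostly through blood, with 4 WT blood, 2 APP-PS1 blood, 1 WT brain and 1 APP-PS1 brain library at that level. A bulk library gives 1 value per gene, so that fewer cells of a type and less RNA per cell cannot be told apart. The design text counts as many mice of each strain as there are libraries. The labels do not link libraries to animals, pair them by animal or say that replicates are separate preparations. The p-values therefore reflect only how these libraries spread, part of which may be technical.

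Levels of the granule genes spanned a wide range. Per kilobase of transcript in WT blood, Nkg7 stood at 6057 CPM per kilobase, far above Gzma at 788, Gzmk at 317, Ctsw at 252, Srgn at 235, Cst7 at 228, Gzmb at 211, Gzmm at 122, Prf1 at 48.6 and Lamp1 at 24.5. In WT brain the order of the granzymes on this scale was Gzmk at 331, Gzmb at 163, Gzma at 77.1 and Gzmm at 11.9. In APP-PS1 brain it was again Gzmk (396), Gzmb (195), Gzma (77.1) and Gzmm (15.3), and in APP-PS1 blood it was Gzma (352), Gzmk (175), Gzmm (142) and Gzmb (107). The WT blood values of Gzma and Gzmb rest in part on replicate 5. Without it their mean levels fell from 692 to 332 CPM and from 303 to 158 CPM. The other granzyme genes listed, Gzmc, Gzmd, Gzme, Gzmf, Gzmg and Gzmn, had no count in any library. By 3 counts of each group's total (counting error only), the upper limit is 5.04 CPM for WT blood, 5.75 CPM for WT brain, 10.1 CPM for APP-PS1 brain and 23.7 CPM for APP-PS1 blood.

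**Figure D1:**
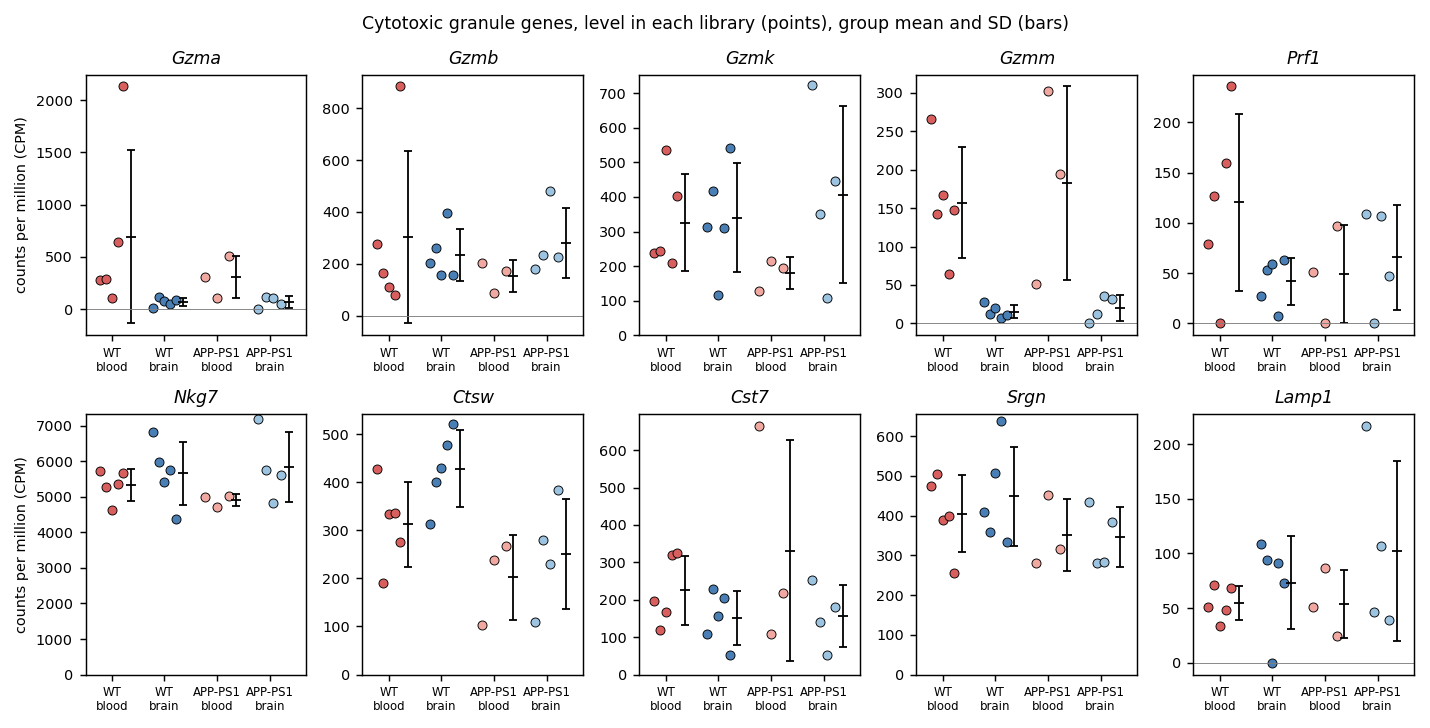
Level of each granule gene in CPM (y axis, linear) in every library, by group (x axis); points are libraries, and the bar beside them gives the group mean and SD. Every brain library of Gzmm lies below every blood library, WT blood replicate 5 stands above the other libraries for Gzma (2131 CPM) and Gzmb (884 CPM), and the groups of the other genes overlap between brain and blood.

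Granzyme M was the granule gene called by edgeR between brain and blood of WT mice. Its WT blood libraries held 266, 142, 167, 63.9 and 147 CPM, and its WT brain libraries held 27.2, 11.8, 19.5, 7.59 and 10.4 CPM. Every brain library was below every blood library. The means were 157 ± 72.2 CPM in blood and 15.3 ± 7.996 CPM in brain (SD, n = 5 each). The level was 11.3-fold lower in brain, with a log2 fold change of -3.49 (95% interval -4.78 to -2.20, SE 0.643). The Benjamini-Hochberg adjusted p over all genes was 0.000481 in edgeR's quasi-likelihood fit. Gzmm had passed the filter only through blood libraries, 4 of WT and 2 of APP-PS1. With no filter its adjusted p in the same kind of fit was 0.000202. The brain values rest on few reads, 7 counts over the 5 WT brain libraries against 109 over the WT blood libraries. Pooled over libraries this is 13.4 CPM (95% exact Poisson interval 5.39 to 27.6) against 183 CPM (150 to 221), with intervals that cover counting error only. Of the 9 granule genes tested, 1 was called in WT, where 0.761% of all tested genes were called and 0.549% were called lower in brain. Genes without overlap between WT groups and lower in brain made up 1.14% of all tested genes. Gzmm was 1 of 9 by that measure too.

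Granzyme A had the next largest difference, without passing. Its WT blood libraries held 284, 293, 111, 639 and 2131 CPM, and its WT brain libraries held 13.6, 118, 78.2, 45.5 and 83.5 CPM. Brain and blood overlapped through 1 blood library at 111 CPM and 1 brain library at 118 CPM, and the rest of the blood libraries lay higher. On the log2 scale the difference was -3.34 with an SE of 0.811 (adjusted p = 0.0962). Without WT blood replicate 5, which held 217 of the 365 Gzma counts of its group, the change was -2.25 with a smaller adjusted p of 0.00734, and the WT blood mean moved from 692 ± 827 CPM (SD, n = 5) to 332 ± 221 CPM (SD, n = 4). The gene also passed without WT blood replicate 3 (adjusted p = 0.0249) and with DESeq2 (adjusted p = 0.00683).

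Granzymes B and K were read in cells of both tissues, and their differences in WT did not pass. Gzmb, the classic killer granzyme, had 275, 166, 111, 79.9 and 884 CPM in WT blood and 204, 259, 156, 395 and 157 CPM in WT brain. The brain values fell inside the blood range, and the log2 fold change was -0.45 (95% interval -1.41 to 0.52, adjusted p = 0.899). Its sign depended on WT blood replicate 5, with 0.42 without that library (adjusted p = 0.886). Gzmk, the granzyme of memory-type cells, had 238, 245, 535, 208 and 403 CPM in WT blood and 313, 418, 117, 311 and 543 CPM in WT brain. The groups covered almost the same span, with a log2 fold change of 0.05 (95% interval -0.64 to 0.73, adjusted p = 0.989).

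Perforin, the pore-forming protein, was sparse throughout. Prf1 had 79.2, 127, 0, 160 and 236 CPM in WT blood and 27.2, 53.0, 58.6, 7.59 and 62.6 CPM in WT brain. It was at 0 in 1 blood library, below all WT brain libraries, while the other blood libraries were all above them. The log2 fold change of -1.58 (95% interval -3.04 to -0.13) did not pass over all genes (adjusted p = 0.559). The granule membrane protein gene Nkg7 was the most even member, at 5336 ± 441 CPM in WT blood against 5670 ± 889 CPM in WT brain (SD, n = 5 each), with a log2 fold change of 0.02 (95% interval -0.36 to 0.40, adjusted p = 0.996). Srgn, the granule proteoglycan, stood at 405 ± 97.2 CPM in WT blood and 449 ± 124 CPM in WT brain (SD, n = 5 each), with a change of 0.06 (95% interval -0.49 to 0.61). Ctsw, cathepsin W, stood at 313 ± 87.95 CPM and 429 ± 79.5 CPM, with a change of 0.38 (95% interval -0.23 to 0.99). For Cst7, cystatin F, an inhibitor of granule cathepsins, the levels were 225 ± 92.5 CPM and 150 ± 71.8 CPM, with a change of -0.59 (95% interval -1.40 to 0.23). None of these 4 genes passed, with adjusted p from 0.789 to 0.996 by edgeR.

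In APP-PS1 mice the Gzmm levels of brain and blood did not overlap either, on still fewer reads. Its APP-PS1 blood libraries held 51.2, 302 and 195 CPM (2, 14 and 8 counts), and its APP-PS1 brain libraries held 0, 11.7, 35.6 and 31.3 CPM (0, 1, 2 and 4 counts). All brain values were below all blood values, although the 0 in a library of 27646 counts allows up to 109 CPM (3 counts), above the lowest blood library. The log2 fold change of -2.97 (SE 0.776, 95% interval -4.53 to -1.42) missed the threshold narrowly (adjusted p = 0.0535). It passed with RLE size factors (adjusted p = 0.0472), with sex as a term (0.0491), and without APP-PS1 blood replicate 1 (0.0203), while it was further from passing with no filter (0.208) and without APP-PS1 blood replicate 2 (log2 fold change -2.32, adjusted p = 0.391). Of the 9 tested genes, 0 were called in APP-PS1, where 0.549% of all genes were called. Gzmm, Gzmk and Cst7, 3 of the 9, had an unadjusted p under 0.05 by edgeR, as had 254 of the 2366 tested genes. DESeq2 called 0 of the 7 granule genes to which it gave an adjusted p, Gzmm not being among them. Over all genes it called 23 of 940. Of all tested genes, 3.97% were lower in APP-PS1 brain without overlap, and 1 of 9 granule genes, Gzmm, was.

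The other granzymes of APP-PS1 mice overlapped between tissues. Gzma had 307, 107.9 and 511 CPM in APP-PS1 blood and 0, 117, 107 and 47.0 CPM in APP-PS1 brain, with a log2 fold change of -2.01 and SE of 1.11 (adjusted p = 0.559). Gzmb had 205, 86.3 and 170 CPM in APP-PS1 blood and 181, 234, 480 and 227 CPM in APP-PS1 brain, with a log2 fold change of 0.89 and SE of 0.695 (adjusted p = 0.736). Gzmk had 128, 216 and 195 CPM in APP-PS1 blood and 723, 351, 107 and 446 CPM in APP-PS1 brain, with a log2 fold change of 1.07 and SE of 0.501 (adjusted p = 0.435). In each of these 3 genes a single library made the overlap, and no change passed. Cst7 had 666, 107.9 and 219 CPM in APP-PS1 blood against 253, 140, 53.3 and 180 CPM in APP-PS1 brain, with a log2 fold change of -1.07 (adjusted p = 0.460). Its blood mean of 331 ± 295 CPM (SD, n = 3) rested on replicate 1, without which it was 163 CPM over the other 2 and the change -0.16. Without APP-PS1 blood replicate 3 the change of Gzma was -1.36. Prf1, Nkg7, Ctsw and Srgn had log2 fold changes of 0.22, 0.22, 0.40 and -0.08 (adjusted p from 0.812 to 0.970), and Prf1 moved to 1.23 without APP-PS1 blood replicate 3.

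**Figure D2:**
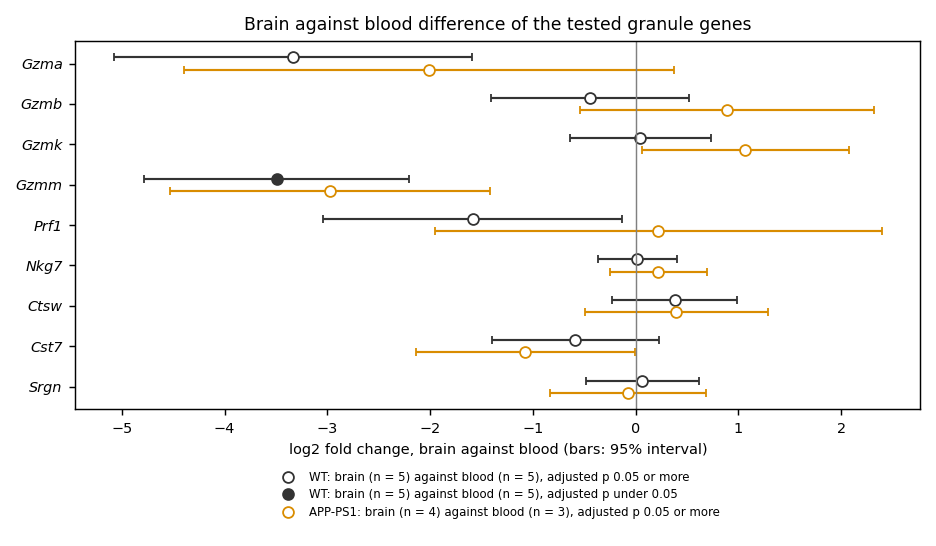
Log2 fold change of brain against blood (x axis) for the 9 tested granule genes (y axis) in WT and APP-PS1 mice; bars are 95% intervals, and filled points have an adjusted p under 0.05. Gzmm in WT, at -3.49, is the only filled point, and the intervals of Gzmb and Nkg7 cross 0 in both strains.

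Over both strains, all 9 brain libraries of Gzmm were below all 8 blood libraries, with the highest brain library at 35.6 CPM and the lowest blood library at 51.2 CPM. Such a full separation with brain lower was seen for 6 of the 2366 tested genes (0.254%), and for no other granule gene. The highest brain library and the lowest blood library each held 2 Gzmm counts. Because Gzmm entered the test through its blood libraries, this share and those within each strain are descriptions and not tests. With brain against blood averaged over the strains, Gzmm had a log2 fold change of -3.23 and an SE of 0.505. Its adjusted p by edgeR was 1.21e-05, or 2.1e-06 with no filter. It was the 1 of 9 granule genes called, where 2.62% of all tested genes were called and 1.35% were called lower. Gzma, at -2.67 (SE 0.687), missed the threshold (adjusted p = 0.0568), and passed with DESeq2 (adjusted p = 0.00218). Cst7 had an average change of -0.83 (adjusted p = 0.210), Gzmk of 0.56 (adjusted p = 0.438), Prf1 of -0.68 (adjusted p = 0.756) and Gzmb of 0.22 (adjusted p = 0.902).

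The 4 granzymes were also read as shares of their summed counts, which do not depend on the scaling of the libraries. Gzmb and Gzmk together made up 48.2%, 48.6%, 69.9%, 29.03% and 36.1% of granzyme counts in the WT blood libraries and 92.7%, 83.9%, 73.7%, 93% and 88.2% in the WT brain libraries. They made up 48.1%, 42.4% and 34.1% in APP-PS1 blood and 100%, 82.0%, 80.5% and 89.6% in APP-PS1 brain. All 9 brain libraries lay above all 8 blood libraries, from 73.7% upward against 69.9% downward. Because the 4 shares sum to 100%, this restates the lower joint share of Gzma and Gzmm in brain. It does not show higher levels of Gzmb or Gzmk, whose changes between tissues did not pass. Gzma held 39.5% ± 22.2 (SD, n = 5) of granzyme counts in WT blood and 10.9% ± 7.29 (SD, n = 5) in WT brain, and Gzmm held 14.1% ± 8.66 and 2.78% ± 2.10. The pairing of Gzmb with Gzmk was chosen after the values were seen, so the separation is a description with no test, and the library with the fewest granzyme counts had 19.

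**Figure D3:**
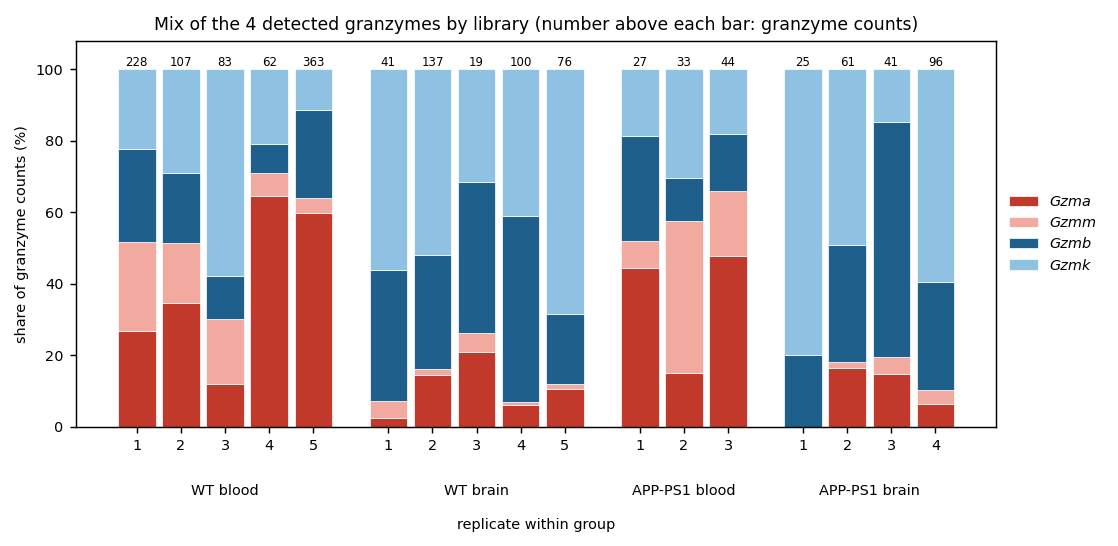
Share of each granzyme in the summed counts of the 4 detected granzymes (y axis, percent) for each library (x axis, grouped); the number above a bar is that library's granzyme counts. The 2 blue parts, Gzmb and Gzmk, take at least 73.7% of every brain bar and at most 69.9% of every blood bar.

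Between strains, no granule gene was called. In brain, 0 of 9 genes passed (0% of all 2366 tested genes passed; 98 of those had an unadjusted p under 0.05, and DESeq2 called 0), and 1 of the 9, Ctsw, had an unadjusted p under 0.05. Gzma had a log2 fold change of APP-PS1 against WT brain of 0.03 (95% interval -2.29 to 2.35), Gzmb of 0.19 (-0.88 to 1.26), Gzmk of 0.10 (-0.65 to 0.85) and Gzmm of 0.65 (-1.07 to 2.36). Ctsw, at 429 ± 79.5 CPM (SD, n = 5) in brains of WT mice against 251 ± 114 CPM (SD, n = 4) in those of APP-PS1 mice, had a change of -0.69 (-1.37 to -0.00457), and Cst7 of -0.07. The adjusted p was 0.999 for all 9. The intervals are wide, widest for Gzma.

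In blood, 0 of 9 granule genes passed between strains (0.0423% of all genes did), and none of the 9 had an unadjusted p under 0.05, nor did DESeq2 call any. Of the 9 values 7 were negative, with a median of -0.70 beside -0.05 over all tested genes, of which 47.3% were positive. The 9 values share the same libraries, so their signs are not independent and the count is a description. APP-PS1 blood also held the shallowest group of libraries. The log2 fold change of APP-PS1 against WT blood was -1.30 for Gzma (95% interval -3.23 to 0.63), -1.14 for Gzmb (-2.49 to 0.21), -0.92 for Gzmk (-1.88 to 0.04) and -0.70 for Ctsw (-1.54 to 0.14). WT blood replicate 5 carried most of the first 2 values, which were -0.20 for Gzma and -0.27 for Gzmb without it. Gzmm was at 0.13 (-1.07 to 1.33), or -0.55 without APP-PS1 blood replicate 2, and Cst7 at 0.41 (-0.55 to 1.37), or -0.49 without APP-PS1 blood replicate 1. Without APP-PS1 blood replicate 3 Gzma was at -1.95. The part of depth in these values was not tested. No granule gene passed the interaction term, which tests whether brain against blood differs between strains (0 of 9 called, 0.0423% of all genes called, 0 of 9 with an unadjusted p under 0.05, and 0 called by DESeq2). The interaction was 0.52 for Gzmm (95% interval -1.49 to 2.52), 1.33 for Gzma, 1.33 for Gzmb, 1.02 for Gzmk and 1.81 for Prf1, with adjusted p from 0.945 to 0.999. Single blood libraries moved these values. Without WT blood replicate 5 the interaction was 0.26 for Gzma and 0.50 for Gzmb, without APP-PS1 blood replicate 3 it was 1.98 for Gzma and 2.83 for Prf1, and without APP-PS1 blood replicate 2 it was 1.21 for Gzmm.

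Lamp1, the lysosomal membrane protein that reaches the cell surface when granules are released, was compared below the filter. Its levels were 54.5 ± 15.6 CPM in WT blood and 73.4 ± 43.0 CPM in WT brain (SD, n = 5 each), 54.0 ± 31.1 CPM (SD, n = 3) in APP-PS1 blood and 102 ± 82.2 CPM (SD, n = 4) in APP-PS1 brain. Exact two-sided permutation tests gave p = 0.405 for WT brain against blood and p = 0.429 for APP-PS1 brain against blood, where the smallest possible values were 0.00794 and 0.0286. Between strains the exact p was 0.571 in brain and 0.982 in blood. The WT brain group held 1 library at 0, replicate 3, whose 51161 counts allow up to 58.6 CPM (3 counts). The other WT brain libraries, at 109, 94.2, 91.0 and 73.0 CPM, all lay above the highest WT blood library at 71.2 CPM. Leaving replicate 3 out, a choice that its value prompts, moved the difference of brain from blood from 18.9 to 37.3 CPM. The WT comparison of Lamp1 therefore depends on that library.

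Markers of other cells were read beside the granzymes. Natural killer cells carry the same granules. Of 8 listed natural killer markers, 7 had counts in WT blood, 3 in WT brain, 4 in APP-PS1 blood and 3 in APP-PS1 brain, and the defining marker Ncr1 was at 0 in every library. Their summed level was 102 to 474 CPM in WT blood, 60.7 to 254 CPM in WT brain, 43.2 to 73.0 CPM in APP-PS1 blood and 11.7 to 94.0 CPM in APP-PS1 brain, mostly from Klre1. WT blood replicate 5, with the highest Gzma and Gzmb, had 128 CPM of this sum. Red cell genes moved with Gzmm and Gzma between the tissues: all 4 haemoglobin genes had counts in each group, and their sum was 2152 to 9967 CPM in WT blood and 2970 to 8071 CPM in APP-PS1 blood, against 156 to 873 CPM in WT brain and 36.2 to 368 CPM in APP-PS1 brain. The haemoglobin sums of the WT blood libraries, in order of replicate, were 2772, 9608, 2152, 9967 and 8142 CPM. Beside them, Gzmm stood at 266, 142, 167, 63.9 and 147 CPM and Gzma at 284, 293, 111, 639 and 2131 CPM. The haemoglobin sums of the APP-PS1 blood libraries were 2970, 8071 and 7056 CPM. Gzmm in these stood at 51.2, 302 and 195 CPM and Gzma at 307, 107.9 and 511 CPM. Of 6 B cell markers, 4 had counts in each group but APP-PS1 brain, where 3 had, and Ms4a1 was at 0 throughout. Their sum was 108.04 to 419 CPM in WT blood, above all WT brain libraries at 40.8 to 97.7 CPM, and 146 to 302 CPM in APP-PS1 blood, within the 53.3 to 574 CPM of APP-PS1 brain. The part of these cells in the result was not tested. The neutrophil markers had no count in any library, and neither did P2ry12, Tmem119 and Trem2 of microglia.

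Across the 17 libraries, the genes whose log level ran closest to Gzmm were Hbb-bs (Pearson r = 0.85), Crip1 (0.80) and Hba-a1 (0.80), and those closest to Gzma were Hbb-bs (0.82), Arpc5 (0.77) and Lgals1 (0.77). For Gzmb they were Hist1h2ap (0.77), Lims1 (0.71) and Bcap31 (0.64), and for Gzmk Arf1 (0.80), Gnptg (0.78) and Actg1 (0.71). Nkg7 ran closest to Tox4 (0.72), Rabac1 (0.71) and Slamf7 (0.70), Ctsw to Elavl1 (0.83), Irf2bp2 (0.78) and Cish (0.77), and Cst7 to Cnot8 (0.79) and Mrps34 (0.74). Prf1 ran closest to Ttc5 (0.71), Nucb1 (0.67) and Ndufa10 (0.64), and Srgn to Fmnl1 (0.71), Cox7a2 (0.67) and Dock2 (0.67). No granule gene was among the 3 nearest of another. These correlations include the difference between tissues and share libraries and depth, and they are given as descriptions. The group means were then taken out, and of all pairs of tested granule genes those with the largest r in size are given. Gzma and Gzmb had r = 0.60 over the 17 libraries, and 0.35 without WT blood replicate 5. Gzma and Srgn had r = -0.62, and -0.49 without that library. Gzmm and Cst7 had r = -0.64 and Gzmm and Ctsw had r = 0.60. A brain library held only 0 to 4 Gzmm counts.

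Other genes of the granule pathway were taken from a list of 47, of which 46 were in the table, 9 had no count and 16 passed the filter. By edgeR, none of the 16 was called in WT or in APP-PS1 brain against blood, where 0.761% and 0.549% of all tested genes were. Of the 16, 1 and 3 had an unadjusted p under 0.05, beside 172 and 254 of all 2366 tested genes. DESeq2 called 0 of 30 and 1 of 6 listed genes with an adjusted p, beside 26 of 5664 and 23 of 940 genes in all. In WT 8 values were positive and 8 negative, with a median of 0.09 beside 0.02 over all tested genes. In APP-PS1 13 were positive and 3 negative, with a median of 0.58 beside 0.03 over all tested genes. Of all tested genes, 51.6% were positive in WT and 51.7% in APP-PS1. The 16 values of a strain share the same libraries, so their signs are not independent. Averaged over the strains, where 2.62% of all tested genes were called, 1 of the 16 was, Tnfsf10, which encodes the death ligand TRAIL and acts outside the granule route. Tnfsf10 stood at 156 ± 37.8 CPM in WT brain against 43.1 ± 28.7 CPM in WT blood (SD, n = 5 each), and at 118 ± 68.3 CPM (SD, n = 4) in APP-PS1 brain and 23.8 ± 2.06 CPM (SD, n = 3) in APP-PS1 blood. Its averaged log2 fold change was 2.02 (SE 0.509, adjusted p = 0.0132), and it was not called with APP-PS1 brain replicate 4 left out (adjusted p = 0.108). For the average, DESeq2 called 2 of the 26 listed genes with an adjusted p, Tnfsf10 (adjusted p = 0.0177) and Id2 (0.0443, against 0.0773 by edgeR). Over all genes it called 88 of 4352. Fasl, the other death ligand tested, had 0.92 in WT and 0.79 in APP-PS1 and did not pass (adjusted p = 0.711 and 0.761).

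Among genes that process and move granules, Ctsd, a lysosomal protease, had log2 fold changes of -0.24 in WT and 0.89 in APP-PS1 (adjusted p = 0.913 and 0.366). Rab27a, the GTPase that docks granules, had -0.85 and 1.03 (adjusted p = 0.773 and 0.662), and Unc13d, which primes them for fusion, had 0.57 and 0.45 (adjusted p = 0.886 and 0.907). Vamp8, a fusion protein, had -0.08 and 0.03, Kif5b, a motor protein, -0.01 and 0.21, and Calr, a calcium-binding chaperone also found in granules, 0.20 and 0.79. Of the transcription factors, Eomes had -0.59 and 0.70 (adjusted p = 0.886 and 0.855) and Runx3 had 0.59 and 1.15 (adjusted p = 0.776 and 0.518). Id2, an abundant regulator at 3039 CPM on average, had 0.18 and 0.96 (adjusted p = 0.925 and 0.0975). Among the genes just named, Ctsd, Rab27a, Vamp8, Kif5b and Eomes had opposite signs in the strains. None of the 16 genes passed the interaction term by edgeR (0.0423% of all genes did), and DESeq2 called 0. Of the 16, 3 had an unadjusted p under 0.05 by edgeR, beside 117 of all 2366 tested genes. Fasl, Rab27a, Unc13d and Eomes were named for their roles after their values were seen.

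**Figure D4:**
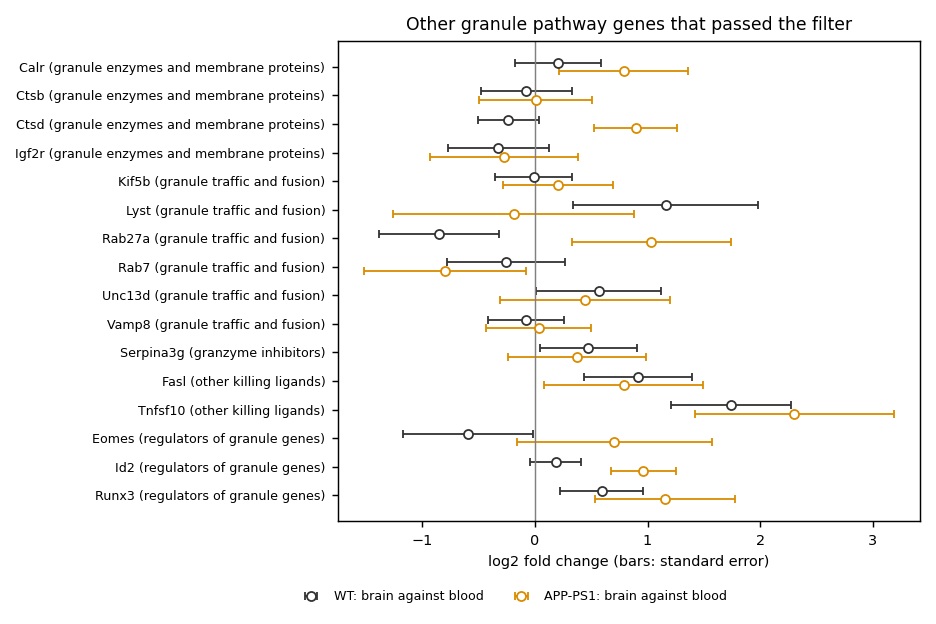
Log2 fold change of brain against blood (x axis) for the 16 tested genes of the granule pathway list (y axis) in WT and APP-PS1 mice; bars are standard errors. Most APP-PS1 points lie right of 0 (13 of 16), the WT points lie on both sides (8 and 8), and Tnfsf10 lies farthest right in both strains.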

How the data were processed

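RNA sequencing was done on CD8+ T cells in 17 libraries of 4 groups, taken from the labels. The authors deposited raw, whole-number counts for each gene in each library. Bowtie2 2.2.2, HTSeq 0.11.2, FastQC, DESeq2 and the build GRCm38 are named in the submitters' processing notes without their roles. Not given in the sources used here were cell separation, library kit, strand setting, molecular identifiers and annotation. Without a known strand setting, reads of Ctsw and Fibp, and of Lamp1 and Grtp1, whose exons overlap on opposite strands, cannot be told apart. Fibp had 23 counts in all and Grtp1 had 4, and the part of the overlap in the Ctsw and Lamp1 values was not tested.

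The test was edgeR's robust quasi-likelihood F test (version 4.0.16, R 4.3.3) after filterByExpr by group and TMM scaling. All libraries entered a shared fit with group means, and genes were called at a Benjamini-Hochberg adjusted p under 0.05 over 2366 genes. The common biological coefficient of variation was 0.370. A standard error is the absolute log2 fold change over the square root of F. Over 29 same-group pairs of libraries, the chi-square statistic per degree of freedom was 2.59 to 5.69 and 0 pairs were identical. Nearest genes are the 3 with the highest Pearson r on TMM log2 CPM (prior count 2); 1 of them is not reported here. Lamp1 was tested by exact permutation of the difference of mean CPM. Coordinates and transcript lengths are from GENCODE M21 on GRCm38. Promoter windows came from RefSeq, where 9 of 10 genes matched. Steps were tested on simulated data. Alternatives were RLE size factors, DESeq2 1.42.0, no filter, a filter of 5 CPM in 3 libraries, sex as a term, female libraries only, only the groups compared and leaving out each library; a fit without replicate 1 of both APP-PS1 groups, the libraries with the highest TMM factors, was added after seeing the data. All 10 members are named, with, from the pathway list, called genes and up to 6 others of highest CPM. The members and lists were chosen with earlier results of these data known. Figures were drawn with matplotlib 3.10.9.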

Additional observations from a re-analysis of the deposited data

Results flagged for a closer look

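In WT blood, replicate 5 stood apart for Gzma and for Gzmb. Its Gzma level was 2131 CPM, with the next library at 639 CPM, and its Gzmb level was 884 CPM, with the next library at 275 CPM. In each case the gap to the nearest library took more of the group's range than Dixon's 95% limit allows (0.739 and 0.758 of the range against 0.71). These were 2 of 30 such checks over genes and groups of 4 or 5 libraries, and chance gives about 1 in 20.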

How the results depend on the processing

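No paired analysis was possible because the labels do not pair brain with blood by animal; replicate numbers here only name libraries.

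The Gzmm call in WT was kept in each of the 7 alternatives that could test it and without each of the 17 libraries (log2 fold change -3.77 to -3.19, adjusted p up to 0.0199); with only the groups compared the gene was below the filter. In APP-PS1 Gzmm also passed without both libraries that stood apart (adjusted p = 0.0459). It passed without WT blood replicate 4 (0.0429), WT brain replicate 3 (0.0426) or WT brain replicate 4 (0.0493), while without APP-PS1 brain replicate 2 its adjusted p was 0.159. The fit of female libraries only left 1 library in each APP-PS1 group, so its p-values and calls for comparisons with APP-PS1 groups are not given. DESeq2 gave no adjusted p for Gzmm in APP-PS1 brain against blood, nor for Prf1 in that comparison and Gzmm between strains in blood. Averaged over strains, Gzma passed without WT blood replicate 1 (0.0475), 2 (0.0497), 3 (0.0197) or 5 (0.000526).

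Over all genes, the 18 called in WT were 12 to 21 without single libraries, and no single library led to a call between strains in brain (0 to 0). The 13 called in APP-PS1 became 23 with DESeq2, and 8 to 22 without single libraries, from the APP-PS1 blood group (replicate 2 left out gave 8, replicate 3 gave 22). The 1 called between strains in blood became 5 without a filter, 7 at the 5 CPM filter and 4 with only the groups compared. It became 0 with sex as a term, with DESeq2 or without both libraries that stood apart, and 0 to 3 without single libraries. The 1 called for the interaction became 0 with DESeq2 and without both libraries that stood apart (0 to 1 without single libraries). The 62 of the average became 45 to 66 without single libraries.

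Small log2 fold changes turned sign, none of the turned values passing. Without single libraries the ranges in WT were -0.0752 to 0.0838 for Nkg7, -0.0962 to 0.140 for Srgn, -0.18 to 0.26 for Gzmk and -0.69 to 0.42 for Gzmb, and in APP-PS1 -0.35 to 1.23 for Prf1 and -0.26 to 0.24 for Srgn. Between strains they were in brain -0.32 to 0.45 for Gzma, -0.15 to 0.48 for Gzmb, -0.14 to 0.41 for Gzmk and -0.26 to 0.20 for Cst7, and in blood -0.55 to 0.58 for Gzmm and -0.49 to 0.77 for Cst7. With no filter the turned values were -0.0468 for Nkg7 and -0.00416 for Srgn in WT, 0.0536 for Srgn in APP-PS1, -0.0515 for Gzma and -0.0144 for Gzmk between strains in brain, and -0.17 for Gzmm in blood. The 5 CPM filter gave -0.0240 for Nkg7, 0.0688 for Srgn, -0.0469 for Gzma, -0.0144 for Gzmk and -0.17 for Gzmm in the same comparisons. Female libraries only, with 1 library in each APP-PS1 group, gave -0.00589 for Nkg7 in WT, and -0.94 for Prf1 and 0.37 for Srgn in APP-PS1. Between strains this fit gave -0.56 for Gzma, -0.0486 for Gzmb and 0.25 for Cst7 in brain, and -0.16 for Cst7 in blood. Without both libraries that stood apart, Nkg7 was at -0.0179 in WT, Gzmk at -0.14 between strains in brain and Cst7 at -0.53 in blood. The cause was not tested.

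The Lamp1 difference in CPM, without single libraries, was 10.1 to 37.3 in WT, 10.3 to 69.6 in APP-PS1, -9.21 to 50.1 between strains in brain and -16.7 to 14.3 in blood; without both libraries that stood apart the last 2 were -9.21 and 0.822. RLE size factors moved the median of all genes by at most 0.05 on the log2 scale. Depth limits all of this most for Gzmm and Prf1, which had 0 to 4 Gzmm counts and 0 to 9 Prf1 counts in a brain library.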
